A study of Mus musculus with 4 samples.

Results

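Genes of the Wnt pathway were followed on the 4 arrays: the ligands Wnt4, Wnt5a and Wnt10b, the secreted modulators Sfrp1, Sfrp2, Frzb, Dkk2 and Dkk3, and the transcription factors Lef1 and Tcf7. They were chosen by name, with earlier results of these data known. All 10 of them were found among the 22911 genes that the probes' RefSeq accessions identify, on 15 probes in all. The RNA came from MC3T3-E1, an established osteoblastic line from mouse skull bone, and each group was 1 sample on 1 one-colour array. The groups were Miglustat at 50 µM, D-PDMP at 10 µM, D-PPMP at 1.0 µM, and a Control without inhibitor. All 3 compounds inhibit glucosylceramide synthase, the product of Ugcg, and the series asks which molecules that enzyme regulates in osteoblasts. Inhibitors were given 4 days before the cells were replated for a further 24 h, and whether the inhibitors stayed in the medium after plating is not given in the sources used here. Miglustat is an iminosugar, while D-PDMP and D-PPMP are ceramide analogues with a morpholine ring that differ in the length of their acyl chain. Since their doses differ as well, their values stand side by side, and the order of a gene's 4 levels describes these arrays and does not compare the compounds.

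Wnt proteins are secreted, lipid-modified ligands that bind Frizzled receptors together with the co-receptors Lrp5 and Lrp6. In the canonical branch this stabilises beta-catenin, which enters the nucleus and activates genes with the DNA-binding factors of the TCF and LEF family. Secreted frizzled-related proteins bind Wnt ligands outside the cell, and some Dickkopf proteins, such as Dkk2, act at the co-receptors. In bone, canonical Wnt signalling promotes osteoblast formation.

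By their brightest probe, 3 of the 10 genes differed between arrays by at least 1.5-fold and were well above background on every array. These were Sfrp2, Wnt4 and Lef1. The sequences before their transcription starts are shown because these are the genes on which the comparisons turn. Each is the 250 bases upstream of the first start that RefSeq lists for the gene (GRCm38.p6), written 5′ to 3′, with capitals where GGGCGG or its reverse complement CCGCCC occurs.
Sfrp2, chr3:83766071-83766320, plus strand: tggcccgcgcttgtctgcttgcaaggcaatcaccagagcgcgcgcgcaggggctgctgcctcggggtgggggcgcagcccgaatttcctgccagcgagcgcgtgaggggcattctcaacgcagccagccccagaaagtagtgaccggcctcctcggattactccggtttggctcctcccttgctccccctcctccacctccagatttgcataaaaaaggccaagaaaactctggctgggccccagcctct
Wnt4, chr4:137277385-137277634, plus strand: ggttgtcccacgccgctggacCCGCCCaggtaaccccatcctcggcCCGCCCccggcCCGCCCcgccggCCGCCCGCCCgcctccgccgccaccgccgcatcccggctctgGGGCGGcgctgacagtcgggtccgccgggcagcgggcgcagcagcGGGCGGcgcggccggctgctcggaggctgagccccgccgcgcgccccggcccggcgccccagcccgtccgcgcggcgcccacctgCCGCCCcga
Lef1, chr3:131110047-131110296, plus strand: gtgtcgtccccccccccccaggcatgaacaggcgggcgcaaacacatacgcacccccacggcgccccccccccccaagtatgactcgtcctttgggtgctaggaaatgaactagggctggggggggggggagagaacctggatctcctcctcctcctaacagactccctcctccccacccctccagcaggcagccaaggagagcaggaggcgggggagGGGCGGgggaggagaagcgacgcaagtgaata
The hexamer GGGCGG, the core of the GC box, was found on either strand in 32.7% of 32851 upstream windows of this length. The Wnt4 window held 8 copies, some of them overlapping, the Lef1 window 1, and the Sfrp2 window had no match. The core of the TCF and LEF motif was searched on both strands as well, in the form CTTTGAA, in the form CTTTGAT, in the form CTTTGTA and in the form CTTTGTT, and 14.8% of all windows held at least 1 of them. These 3 windows held none, and none of TATAAA, the core of the TATA box, which 12.4% of all windows held on either strand. The last of the 4 windows listed for Lef1 held TACAAAG, the reverse complement of CTTTGTA, 147 bases before its start. GC content was 63.6% for Sfrp2, 85.2% for Wnt4 and 66.4% for Lef1, against a median of 52.4% over all windows.

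On each array 59305 spots outside the controls measured 56605 probes, and no spot was saturated. Probes well above background made up 60.2%, 60.8% and 62.4% with Miglustat, D-PDMP and D-PPMP, and 57.4% in Control. A level is the log2 of the processed spot signal minus the array's 75th percentile, so 0 is that percentile. A gene with several probes takes its brightest. Since every group has a single array, the data carry no replicate spread, and no test was made. The error given after ± is the measuring error of a log2 ratio that the scanner software assigns, with a median of 0.20. The spread among repeated spots of a probe on an array was smaller, at a root mean square SD of 0.06, 0.05, 0.05 and 0.06 for Miglustat, D-PDMP, D-PPMP and Control. All 3 comparisons share the Control array. Neither error covers differences between cultures, and the arrays shared 1 slide with a position for each group, so position and treatment cannot be told apart. The log2 ratio of Ugcg itself to Control was 0.09 ± 0.20 with Miglustat, 0.08 ± 0.20 with D-PDMP and, for D-PPMP, 0.00 ± 0.20.

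Of 11 osteoblast markers, 8 were well above background on all 4 arrays, among them Runx2, Sp7, Col1a1 and Spp1. No array had Alpl, which encodes the tissue-nonspecific alkaline phosphatase, or the bone matrix gene Ibsp at that level. Bglap was well above background with D-PDMP and D-PPMP only. Of 6 macrophage markers Cd68, Csf1r and Cd14 were measured throughout while Ptprc, Adgre1 and Lyz2 were dim everywhere, and the summed signal, in units of the array's 75th percentile, was 3.66, 3.38 and 3.65 with Miglustat, D-PDMP and D-PPMP, and 3.54 in Control. Of 5 endothelial markers only Pecam1 was measured, and of 5 muscle markers none on all 4 arrays, with Myod1, Myog and Ckm dim everywhere. Among 6 chondrocyte markers Sox9, Col2a1 and Comp were well above background throughout, while Acan, Col10a1 and Matn1 were so nowhere. The summed signal of the chondrocyte list was 88.5, 56.7 and 53.9 with Miglustat, D-PDMP and D-PPMP, and 68.1 in Control. Of 7 adipocyte markers Pparg, Cebpa and Fabp4 were measured throughout, Plin1, Lpl and Cidec nowhere, and Adipoq with D-PPMP only. The summed signal of the adipocyte list was 0.575, 0.510 and 0.493 with the inhibitors and 0.533 in Control. The osteoblast sum was 1318, 1261 and 1219 with the inhibitors and 1444 in Control. The chondrocyte and adipocyte sums were highest with Miglustat and lowest with D-PPMP. The muscle sum was 0.0733, 0.0953 and 0.0922 with the inhibitors and 0.0577 in Control. For the endothelial list it was 0.113, 0.135 and 0.137, and 0.0982 in Control. Those of muscle and endothelium were thus lower with Miglustat than with D-PDMP or D-PPMP. The part of any of these sums in the differences below was not tested. In such bulk RNA, fewer cells of a type and less RNA per cell cannot be told apart.

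Of the members, the 6 genes Wnt4, Wnt5a, Wnt10b, Sfrp2, Dkk3 and Lef1 were well above background on all 4 arrays. The other 4, Sfrp1, Frzb, Dkk2 and Tcf7, were so on none, on any of their 6 probes. Signals of these dim probes lay between 0.943 and 4.95, so no fold is given for them.

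**Figure D1:**
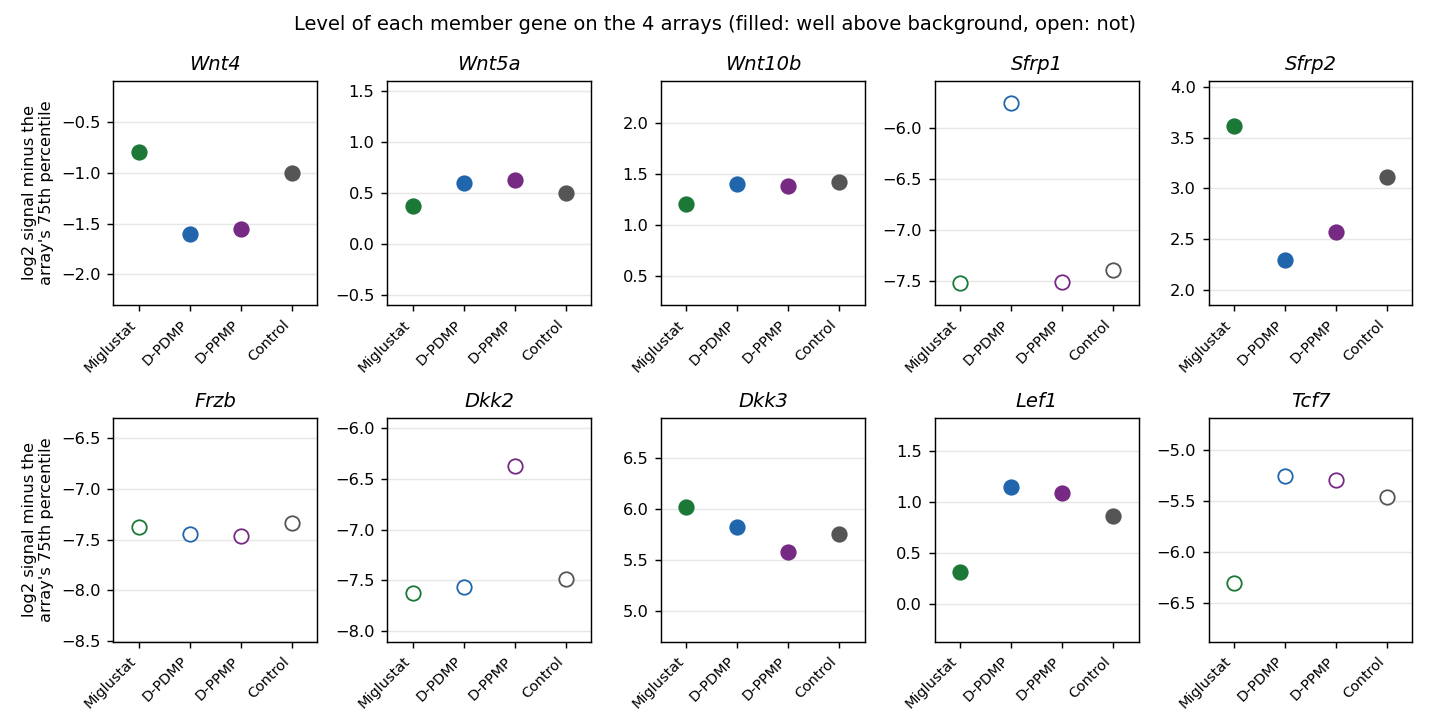
Level of each member gene (log2 signal minus the array's 75th percentile, brightest probe, 1 point per array) with Miglustat, D-PDMP, D-PPMP and in Control; every panel spans the same range of log2 units around its own middle. Sfrp2 and Wnt4 were highest with Miglustat and lowest with D-PDMP, Lef1 was lowest with Miglustat at 0.31, and the open points of Sfrp1, Frzb, Dkk2 and Tcf7 were not well above background.

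Wnt4, a ligand that can act through canonical and non-canonical branches, was highest with Miglustat and lowest with D-PDMP, a span of 1.76-fold. Its level was -0.79 with Miglustat, -1.61 with D-PDMP, -1.55 with D-PPMP and -1.01 in Control. The ratio over Control was 0.21 ± 0.21 with Miglustat (1.16-fold higher), -0.60 ± 0.21 with D-PDMP (1.52-fold lower) and -0.54 ± 0.21 with D-PPMP (1.46-fold lower). To 2 decimals the Miglustat ratio equals its measuring error, and the levels with D-PPMP and D-PDMP differed by 0.06, less than that error. The D-PDMP ratio is just past 1.5-fold and was -0.36 under normexp, a setting that also replaces the processed signal by the spot median and adds an offset of 50. The D-PPMP ratio passed 1.5-fold under quantile and cyclic loess normalization, at -0.60 under each.

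Wnt5a, the prototype of the non-canonical ligands, was at 0.38 with Miglustat, 0.60 with D-PDMP, 0.62 with D-PPMP and at 0.50 in Control. The 4 levels spanned 1.19-fold, and no neighbours in their order differed by more than the measuring error. Its ratios were -0.12 ± 0.20, 0.10 ± 0.20 and 0.12 ± 0.20 with Miglustat, D-PDMP and D-PPMP. The second probe of Wnt5a is far dimmer, spanned 1.60-fold over the arrays and gave -0.14 ± 0.31, 0.15 ± 0.29 and 0.54 ± 0.28, so the probes disagree on the size of the D-PPMP difference, and the mean of both was 0.33.

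Wnt10b, a canonical ligand that favours osteoblast over adipocyte formation in mice, was at 1.21 with Miglustat, 1.40 with D-PDMP, 1.38 with D-PPMP and at 1.42 in Control. The lowest level was that with Miglustat, at -0.21 ± 0.20 over Control, though no neighbours in the order differed by more than the measuring error. The second probe of Wnt10b gave -0.22 ± 0.21 with Miglustat, -0.02 ± 0.21 with D-PDMP and, for D-PPMP, -0.18 ± 0.21. The D-PDMP and D-PPMP ratios of the brightest probe were -0.02 ± 0.20 and -0.04 ± 0.20, the sign with D-PDMP turning under normexp, at 0.03.

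Sfrp2, a secreted frizzled-related protein that binds Wnt ligands, showed the widest span of the 6 measured members, 2.5-fold over the 4 arrays. Its level was 3.62 with Miglustat, 2.29 with D-PDMP, 2.57 with D-PPMP and 3.11 in Control. Control thus lay between the Miglustat array above it and the arrays of both ceramide analogues below it. Against Control the log2 ratio was 0.50 ± 0.20 with Miglustat (1.42-fold higher), -0.82 ± 0.20 with D-PDMP (1.77-fold lower) and -0.55 ± 0.20 with D-PPMP (1.46-fold lower). Each step in the order of the 4 levels exceeded the measuring error of that ratio, the smallest being 0.27 ± 0.20 between D-PPMP and D-PDMP. Of 14154 genes measured with D-PDMP and in Control, 54 had a lower ratio than Sfrp2. With Miglustat 327 of 14171 had a higher one.

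Dkk3, a divergent member of the Dickkopf family, was at 6.02 with Miglustat, 5.83 with D-PDMP, 5.58 with D-PPMP and at 5.76 in Control. Its ratios were 0.26 ± 0.20, 0.07 ± 0.20 and -0.18 ± 0.20, a span of 1.35-fold over the arrays in which no neighbouring levels differed by more than the measuring error. The second probe of Dkk3 had its highest level with Miglustat too, and gave 0.40 ± 0.20, 0.20 ± 0.20 and 0.01 ± 0.20. The 2 probes thus agreed on a higher signal with Miglustat but differed in sign with D-PPMP, where both values were within the error.

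Lef1, the TCF and LEF family member through which beta-catenin acts on many targets, was lowest with Miglustat and highest with D-PDMP. Its level was 0.31 with Miglustat, 1.15 with D-PDMP, 1.09 with D-PPMP and 0.87 in Control, a span of 1.79-fold. The ratio over Control was -0.55 ± 0.20 with Miglustat (1.47-fold lower), 0.29 ± 0.20 with D-PDMP (1.22-fold higher) and 0.22 ± 0.20 with D-PPMP (1.17-fold higher). The levels with D-PDMP and D-PPMP differed by 0.06, within the measuring error, whereas the other steps exceeded it. Of 14171 genes measured with Miglustat and in Control, 172 had a lower ratio than Lef1. Tcf7, the second family member followed, had a signal of 2.41 with Miglustat, 4.95 with D-PDMP, 4.81 with D-PPMP and 4.16 in Control on its brighter probe, none of them well above background. The family members Tcf7l1 and Tcf7l2, named after their values were seen, were brighter than Lef1, at 2.69 and 3.57 in Control. On their brightest probes the ratios lay within the measuring error with all 3 inhibitors, while another probe of Tcf7l2 gave -0.25 ± 0.20 with D-PPMP.

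**Figure D2:**
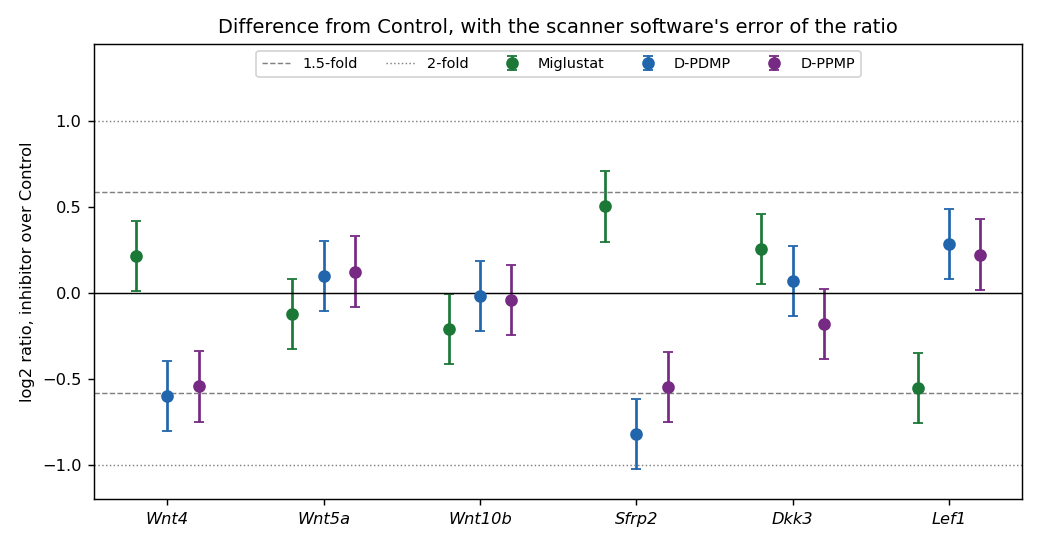
Log2 ratio of each inhibitor array over the Control array for the 6 members well above background on all 4 arrays; bars are the scanner software's error of the ratio, and dashed and dotted lines mark 1.5-fold and 2-fold. Sfrp2 with D-PDMP at -0.82 was the largest difference, and the Wnt5a bars all cross 0.

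For the dim members the signals are given without a fold. Sfrp1, a secreted frizzled-related protein, had signals of 1.04, 3.51 and 1.03 with Miglustat, D-PDMP and D-PPMP, and 1.09 in Control. Dkk2, a Dickkopf protein that binds Lrp5 and Lrp6, had 0.968, 1.00 and 2.27 with the inhibitors, and 1.02 in Control. The brighter probe of Frzb, also named Sfrp3, lay between 1.07 and 1.15 on all arrays. For the single high values of Sfrp1 and Dkk2 the software's error of the log2 ratio was 1.52 and 1.58.

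At 1.5-fold, 2 of the 6 measured members were called lower with D-PDMP, Sfrp2 and Wnt4, where 1.2% of all 14154 genes were, and 0 were called higher, against 1.34%. Because the members were chosen with earlier results of these data known, their share cannot be weighed against that of all genes. Of the 6 measured members 0 were called in either direction with Miglustat, where 1.57% of 14171 genes were higher and 1.11% lower. With D-PPMP it was again 0 of 6, beside 2.27% higher and 1.18% lower among 14200 genes. No member reached 2-fold with any inhibitor. Over all genes 2-fold was reached by 0.212% higher and 0.176% lower of all genes with Miglustat, 0.155% and 0.17% with D-PDMP, and 0.303% and 0.204% with D-PPMP. The split of all genes past 1.5-fold depends on the processing. With Miglustat it was 223 higher and 157 lower, but 139 and 202 when arrays were quantile-normalized, 157 and 207 after cyclic loess, and 38 and 15 if normexp corrected the background. With D-PDMP it was 189 higher and 170 lower, but 116 and 264, 116 and 252, and 10 and 23 under the same settings. With D-PPMP it was 322 higher and 167 lower, but 145 and 361, 138 and 349, and 21 and 38. The median over the 6 measured members was 0.04, 0.02 and -0.11 for Miglustat, D-PDMP and D-PPMP, beside -0.02, 0.00 and -0.01 over all genes.

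**Figure D3:**
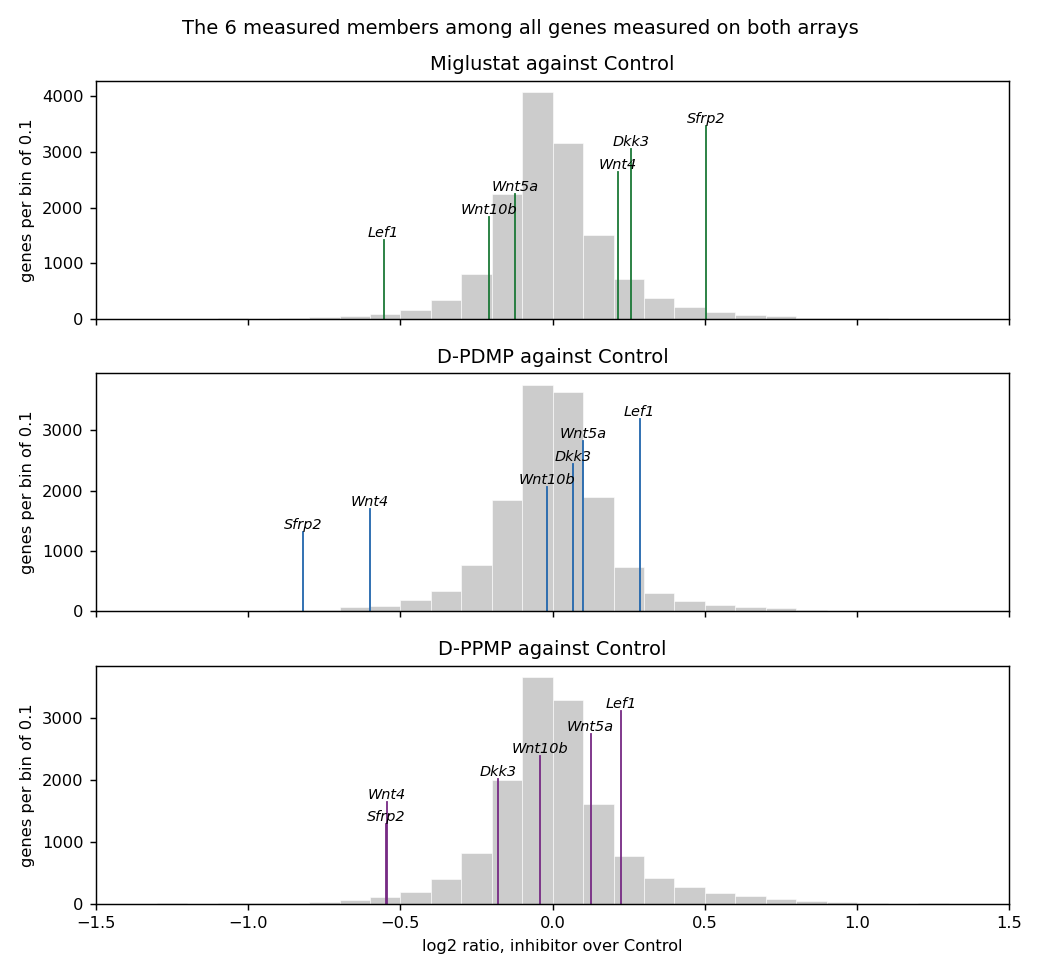
Histogram of the log2 ratio over Control of all genes measured on both arrays, in bins of 0.1, for each inhibitor, with the 6 measured members marked by lines whose height has no meaning. Sfrp2 and Wnt4 lie in the lower tail with D-PDMP at -0.82 and -0.60, and Lef1 in the lower tail with Miglustat at -0.55.

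The genes with the ratios most like those of the 3 wide-ranging members were found by the distance between their 3 log2 ratios over Control, among 14002 other genes well above background on all 4 arrays. Nearest to Sfrp2 were Cyp1a1, a cytochrome P450 induced through the aryl hydrocarbon receptor, at a distance of 0.08, Vgf, a neuropeptide precursor, at 0.18, and the BMP ligand gene Bmp4 at 0.21. Bmp4 had ratios of 0.62, -0.68 and -0.45 with Miglustat, D-PDMP and D-PPMP. Nearest to Wnt4 were the collagen gene Col20a1 at 0.09, the homeobox gene Irx3 at 0.14 and Erich6 at 0.14. Nearest to Lef1 were Plac1 at 0.06, Pbp2 at 0.07 and Adssl1, an adenylosuccinate synthase, at 0.11. Plac1 had ratios of -0.51, 0.27 and 0.26. All these distances except that of Bmp4 were below the median measuring error of a single log2 ratio, 0.20. Which genes are nearest is therefore not settled, and all 3 ratios share the Control array.

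The rest of the pathway was read from 7 lists of 108 genes, all with a probe. Of these, 79 were well above background on all 4 arrays and 23 on none. The remaining 6 were so on some arrays. Where only the inhibitor or only the Control array measured the gene, a bound is given below, for Lgr6 with D-PDMP a plain ratio. These bounds do not count the measuring error and are not strict. A dim probe can lie above the lowest level well above background on its array, as Tcf7 did with D-PDMP (-5.26 against -5.34). Of the genes measured on both arrays, 1 of 79 was past 1.5-fold with Miglustat and 1 of 80 with D-PPMP, both higher, where 1.57% and 2.27% of all genes were. With D-PDMP it was 0 of 79, beside 1.34% higher and 1.2% lower over all genes. Among 16 other Wnt ligands 7 were measured, and their medians were 0.17, 0.03 and -0.18 with Miglustat, D-PDMP and D-PPMP, the D-PDMP sign turning with the mean of probes (-0.06) and without a filter (-0.03). With Miglustat 5 of 7 were above Control, and with D-PPMP 6 of 7 were below. The medians over all genes were -0.02, 0.00 and -0.01, against which this and the later direction counts are to be read. Wnt9b, a ligand that was well above background with D-PPMP and on no other array, was at least 1.38-fold higher there, and is named after its values were seen. The error of its log2 ratio was 0.46. Wnt6, a ligand, stood at 0.17 ± 0.20, -0.52 ± 0.20 and -0.39 ± 0.20. Wnt7b, another ligand, stood at -0.24 ± 0.22, -0.54 ± 0.23 and -0.50 ± 0.23 on its brightest probe, but its other probe gave -0.18 ± 0.25, 0.42 ± 0.24 and 0.14 ± 0.24, so its direction with D-PDMP and D-PPMP is unsettled.

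Of 15 other secreted modulators 4 were measured throughout, with medians of 0.05, -0.04 and -0.11, of which the first turned without a filter (-0.02) and the second with the mean of probes (0.05). Rspo3, an R-spondin that enhances Wnt signals, was at 0.25 ± 0.20, -0.31 ± 0.20 and -0.06 ± 0.20, and Rspo2, a second R-spondin, at 0.15 ± 0.20, 0.07 ± 0.20 and -0.31 ± 0.20. The 3 modulators that crossed the background between arrays were Sfrp5, Sostdc1 and Dkk4, named after their values were seen. Sfrp5, a further frizzled-related protein that was not well above background in Control, was at least 1.46-fold higher with D-PDMP. With D-PPMP its bound was at least 1.44-fold higher. Sostdc1, a secreted inhibitor of Wnt and BMP signals, was at least 1.73-fold higher with Miglustat. For D-PDMP the bound was at least 1.18-fold higher. Dkk4, a Dickkopf protein, was at least 1.30-fold higher with Miglustat. Its other probe was dim on every array and had its highest level with D-PDMP. Such a bound sets the brighter level against the higher of the dim probe's own and the lowest level well above background on the dim array. For these modulators the error of the log2 ratio ran from 0.67 to 1.34, and each bound, as a log2 value, was smaller than its error. The ligand acyltransferase Porcn was at 0.04 ± 0.20, -0.15 ± 0.20 and 0.04 ± 0.20, and Wls, the carrier of Wnt proteins to the cell surface, at 0.16 ± 0.20, 0.13 ± 0.20 and 0.03 ± 0.20. The other probe of Wls gave 0.17 ± 0.20, -0.11 ± 0.20 and -0.30 ± 0.20, so its probes differ in sign with D-PDMP and D-PPMP. The medians of this pair, 0.10, -0.01 and 0.04, changed sign with D-PDMP under normexp (0.01) and with D-PPMP under normexp and the mean of probes (-0.01 and -0.05).

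Receptors and co-receptors had medians of 0.08, -0.09 and -0.08 over 21, 21 and 22 measured genes of 26. With Miglustat 17 were above Control, with D-PDMP 14 were below and with D-PPMP 15 were below. The signs of these medians held under all 8 alternatives. In size they lay near the spot SDs of both arrays combined, 0.0787, 0.0762 and 0.0782. Ror1, a receptor tyrosine kinase for Wnt5a, was past 1.5-fold with Miglustat, at a ratio of 0.66 ± 0.20, and stood at -0.24 ± 0.21 with D-PDMP and -0.13 ± 0.21 with D-PPMP. Its level was -0.21, -1.11 and -0.99 with the 3 inhibitors, and -0.86 in Control. Lgr6, an R-spondin receptor that crossed the background and is named after its values were seen, was at least 1.89-fold lower with Miglustat. With D-PDMP its dim level, -5.18, lay above the array's lowest level well above background, -5.34, so 1.65-fold lower is the plain ratio. The errors of the Lgr6 log2 ratios were 0.49 and 0.40. The 18 cytoplasmic transducers had medians of -0.04, 0.01 and -0.02, and the 13 nuclear partners of -0.01, 0.05 and -0.04. All 3 signs of the transducers turned with the mean of probes, and so did those of the nuclear partners with Miglustat and D-PDMP. The transducer sign with D-PDMP also turned under normexp, cyclic loess and a 75th percentile taken from the bright probes. That of the nuclear partners with Miglustat also turned under quantile normalization, cyclic loess and the bright-probe percentile. Btrc, a ubiquitin ligase subunit for beta-catenin, was at -0.23 ± 0.20, 0.14 ± 0.20 and 0.04 ± 0.20, and Tnks, a tankyrase that promotes axin turnover, at 0.02 ± 0.20, 0.00 ± 0.20 and -0.25 ± 0.20. The other probe of Btrc gave -0.04 ± 0.21, -0.26 ± 0.21 and -0.16 ± 0.21, which differs in sign with D-PDMP and D-PPMP, and that of Tnks gave 0.06 ± 0.20, -0.15 ± 0.20 and -0.38 ± 0.20. The corepressor Tle4 was at 0.33 ± 0.20, 0.36 ± 0.20 and 0.32 ± 0.20, and Pygo1, a nuclear cofactor of beta-catenin, at -0.29 ± 0.21, -0.19 ± 0.21 and -0.15 ± 0.21.

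Of 18 Wnt target genes 14 were measured, with medians of 0.01, 0.09 and 0.10 and 7, 9 and 8 genes above Control. The sign with Miglustat and D-PPMP depends on the processing, their medians being -0.03 and -0.01 under cyclic loess. Fosl1, an AP-1 subunit, was past 1.5-fold with D-PPMP at 0.73 ± 0.20, with 0.38 ± 0.20 for D-PDMP and -0.19 ± 0.20 for Miglustat. Axin2, a widely used readout of canonical signalling, was not well above background in Control or with D-PPMP. It was at least 1.23-fold higher with Miglustat. The D-PDMP bound was at least 1.07-fold higher, and the other probe of Axin2 was dim on every array. As log2 values both bounds were smaller than the error of the ratio, 0.54 and 0.56, so a higher Axin2 level is not settled.

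**Figure D4:**
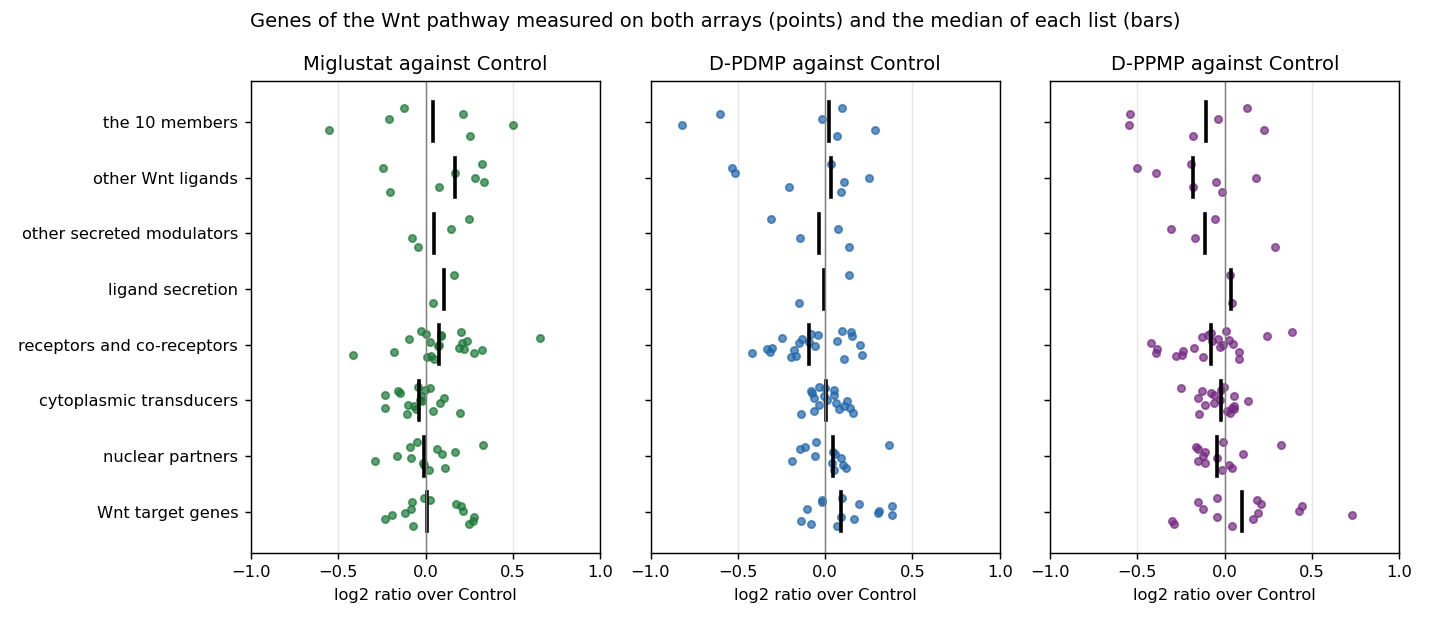
Log2 ratio over Control of measured genes (both arrays well above background), for the members and the 7 pathway lists, for each inhibitor; points are genes, their height within a row has no meaning, and black bars are list medians. The receptor medians were 0.08, -0.09 and -0.08, and those of the cytoplasmic transducers -0.04, 0.01 and -0.02.

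**Figure D5:**
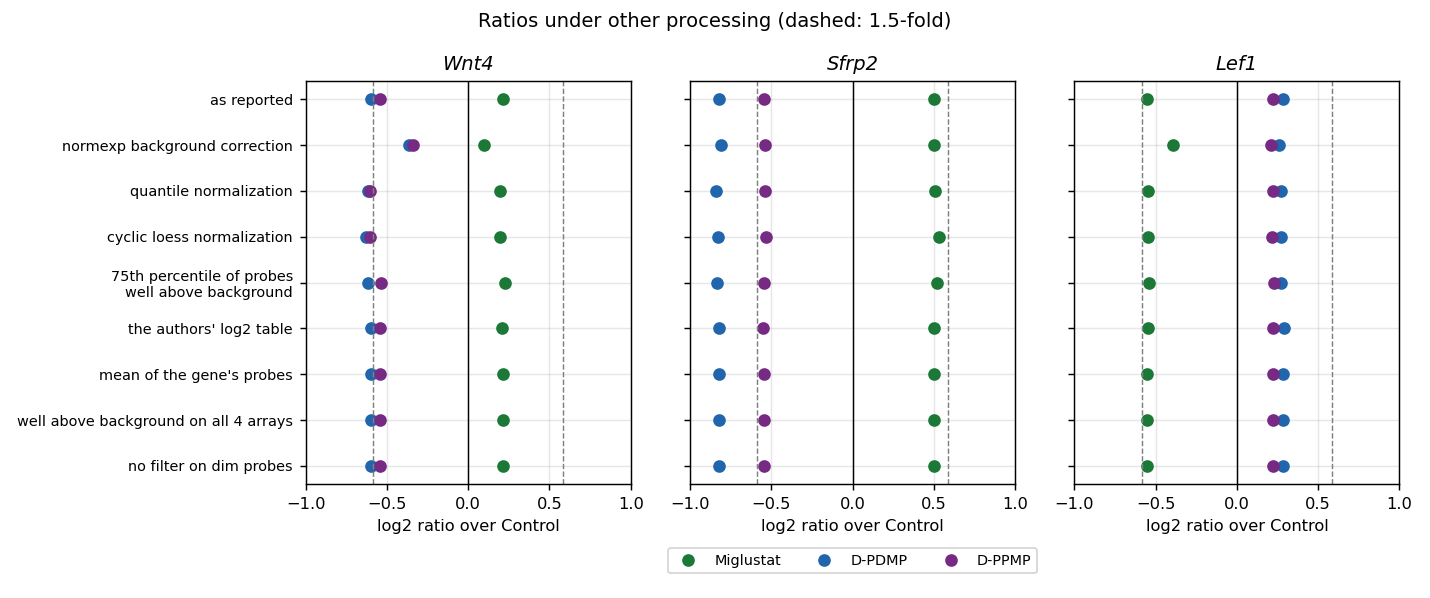
Log2 ratio over Control of Wnt4, Sfrp2 and Lef1 as reported and under 8 alternatives of processing, with dashed lines at 1.5-fold. The signs stayed the same for all 3 genes, Sfrp2 with D-PDMP lay between -0.84 and -0.81, and Wnt4 with D-PDMP moved to -0.36 under normexp background correction. The mean of probes and the filter settings cannot move these ratios, and the authors' table holds nearly the same values.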

How the data were processed

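Total RNA was labelled with Cy3 and hybridised to one-colour arrays, per the labels. The deposited spot intensity files were written by Agilent Feature Extraction 12.1.1.1, per the submitters' processing notes. Their processed signal has a background and a spatial trend removed array by array, per the file headers. In the authors' deposited log2 table each value lay within 0.05 of the log2 processed signal, floored at 1, minus the array's 75th percentile, so it was not centred on genes. Its column medians were -4, -4, -3.89 and -4.1 for Miglustat, D-PDMP, D-PPMP and Control. The software behind that table is not given in the sources used here.

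Control spots were left out. Outlier spots (67, 66, 85 and 70 in the same order) were left out where the probe had other spots. A probe whose every spot was an outlier kept its value. Then log2 signals were averaged over a probe's spots, and the array's 75th percentile over all 56605 probes was subtracted (signals of 191, 189, 189 and 183). Accessions without version matched 32994 probes to 22911 genes of RefSeq GRCm38.p6. The array design names another build, so no probe coordinates are given. A gene is called at 1.5-fold or 2-fold where it was well above background on both arrays. Named are the members, list genes past 1.5-fold or else the 2 most distant of a list, and the 3 genes nearest to each wide-ranging member. Members and lists were chosen with earlier results of these data known. Calling was tested on simulated data that carried only the spread of repeated spots. Differences between cultures were not simulated, so the rate of false calls between single arrays stays unknown. Alternatives used limma 3.58.1 in R 4.3.3, other steps Python 3.11.15 with pandas 2.3.3.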

Additional observations from a re-analysis of the deposited data

How the results depend on the processing

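With 1 array per group, only processing could be varied. The 8 alternatives were quantile normalization, cyclic loess, a 75th percentile taken from the bright probes, the authors' deposited table, the mean of a gene's probes, a stricter filter on dim probes, no filter, and normexp with an offset of 50, which was chosen after seeing the data to use the spot medians because the files give no spot means, and so changes signal, correction and offset together. Normexp on spot means was not run. The 3 ratios of Sfrp2, Wnt4 and Lef1 kept their sign under all 8. Each of these genes has a single probe, so the mean of probes and the filter settings could not change a sign. The authors' table holds the same signal within 0.05 and could hardly do so. Of 144 ratios of the measured members under alternatives, 142 moved by less than their measuring error. The others were Wnt4 with D-PDMP at -0.36 under normexp and Wnt5a with D-PPMP at 0.33 for the mean of probes. Part of this count was fixed in advance. The filter settings cannot move any measured member, the mean of probes only those with more than 1 probe, and the authors' table hardly any. The cause of each change below was not tested, except that leaving out the filter adds genes near background.

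Members called at 1.5-fold lower with D-PDMP numbered 1 under normexp, and lower with D-PPMP 1 under quantile and 1 under cyclic loess (Wnt4). Without a filter, dim members add 1 lower with Miglustat and 1 higher with D-PDMP and 1 with D-PPMP, these last also at 2-fold. List medians were held to the spot SDs of both arrays combined, 0.0787, 0.0762 and 0.0782 for Miglustat, D-PDMP and D-PPMP. Those that moved further were, for Wnt target genes with D-PPMP, -0.0135 under cyclic loess, 0.00367 under quantile, 0.0123 under normexp and -0.00228 without a filter, and with Miglustat 0.19 without a filter. With the mean of probes they were 0.0760 and -0.0599 for other Wnt ligands with Miglustat and D-PDMP, 0.0453 and -0.0285 for other secreted modulators with D-PDMP and D-PPMP, and -0.0464 for ligand secretion with D-PPMP.

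Counts over all genes moved more. At 1.5-fold, higher and lower with Miglustat, D-PDMP and D-PPMP, they were 38 and 15, 10 and 23, and 21 and 38 under normexp, 1946 and 1208, 2337 and 1181, and 2918 and 897 without a filter, 139 and 202, 116 and 264, and 145 and 361 under quantile, and 157 and 207, 116 and 252, and 138 and 349 under cyclic loess, against 223 and 157, 189 and 170, and 322 and 167 as reported. At 2-fold they were 5 and 4, 4 and 2, and 6 and 8 under normexp and 959 and 553, 1250 and 506, and 1619 and 364 without a filter, against 30 and 25, 22 and 24, and 43 and 29. At 2-fold with D-PDMP and D-PPMP there were 14 and 22 higher genes and, with D-PPMP, 56 lower under quantile, 14 and 21 higher and 38 and 48 lower under cyclic loess, and 52 and 83 higher with the mean of probes, which gave 484 higher at 1.5-fold with D-PPMP. No paired analysis was possible because each group has 1 array. Signal over background limits Sfrp1, Frzb, Dkk2, Tcf7 and Axin2.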
